A study of Homo sapiens with 4 samples.

Results

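Distal accessible sites that H295R/TR SF-1 cells kept after SF-1 overexpression, but that stood much earlier in the list of sites called with overexpression than in the basal list, were examined here. FAIRE-seq enriches DNA that is free of nucleosomes. The cells are a subclone of H295R, a line from an adrenocortical tumor, and carry an SF-1 construct that responds to doxycycline. SF-1, encoded by NR5A1, is the nuclear receptor that switches on many genes for making steroids. The basal library came from cells with basal SF-1 expression and the overexpression library from cells treated with doxycycline for 3 days, and both used the same subclone. The data were 1 list of FAIRE sites per condition, with 34423 basal and 31219 overexpression sites, each called from 1 library of unknown depth. There is therefore no replicate check between conditions, no test between them was possible, and what doxycycline itself and the added SF-1 each did cannot be told apart.

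Members were chosen by their places in the lists. The deposited peak number divided by the number of lines gave the place of a site, in percent of its list, where a low value is early. The lists gave 18465 pairs of 1 basal and 1 overexpression site on chromosomes 1 to 22 and X that overlapped only each other. Of these, 4175 were distal, with the basal centre more than 10 kb from every annotated transcript start and within 200 kb of a protein-coding start. A rising pair had a basal place at least 25 points higher than its overexpression place. There were 477 rising pairs, which is 11.4% of the distal pairs. The mirrored rule gave 1013 falling pairs, which is 24.3%, and 1317 steady pairs moved by under 10 points. These counts follow from the rule and describe the lists. What quantity set the order of the lists was not stated, so a change of place is a change of rank and not a measured change of accessibility.

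Distal accessible sites include enhancers, to which transcription factors bind far from the genes they act on, and insulators, where CTCF helps to set the borders of chromatin loops. SF-1 binds DNA as a monomer, to a nuclear receptor half-site extended at its 5′ end. AP-1, made of FOS and JUN proteins, binds many distal enhancers, and its sites are often found in accessible chromatin of cultured cells. Sequence was not used to choose the pairs, so that motif content could be compared between them.

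To show what lay in these sites, reference sequence (hg19, GRCh37) around the SF-1 motif is printed for the 8 rising pairs with the largest change of place among those that held the motif, apart from any on a chromosome or in an exon not printed here. The strand is that on which the motif reads 5′ to 3′, capitals mark the motif, and the name is the nearest protein-coding gene.
SEC61A1, chr3:127709217-127709314, minus strand: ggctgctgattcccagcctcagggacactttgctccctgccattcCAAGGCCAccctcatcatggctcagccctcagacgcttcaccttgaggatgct
IGLON5, chr19:51802498-51802595, minus strand: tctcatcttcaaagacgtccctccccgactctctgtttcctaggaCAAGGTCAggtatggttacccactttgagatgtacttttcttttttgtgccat
SEC16B, chr1:177818842-177818939, plus strand: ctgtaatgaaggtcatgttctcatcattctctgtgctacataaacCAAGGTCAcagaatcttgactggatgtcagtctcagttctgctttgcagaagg
FTO, chr16:54208865-54208962, plus strand: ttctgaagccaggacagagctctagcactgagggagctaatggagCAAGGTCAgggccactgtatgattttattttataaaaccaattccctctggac
ELOVL5, chr6:53259644-53259741, minus strand: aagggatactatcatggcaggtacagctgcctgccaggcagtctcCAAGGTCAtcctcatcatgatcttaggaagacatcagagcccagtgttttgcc
MND1, chr4:154323675-154323772, minus strand: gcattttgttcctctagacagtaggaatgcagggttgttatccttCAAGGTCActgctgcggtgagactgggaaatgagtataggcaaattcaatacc
SLC44A3, chr1:95269233-95269330, minus strand: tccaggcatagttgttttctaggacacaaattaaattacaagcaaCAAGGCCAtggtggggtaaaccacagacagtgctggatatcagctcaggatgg
SYNJ2, chr6:158390319-158390416, plus strand: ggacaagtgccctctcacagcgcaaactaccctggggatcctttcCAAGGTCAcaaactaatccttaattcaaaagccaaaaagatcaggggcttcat

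In 6 of these 8 sites the motif was CAAGGTCA and in 2 it was CAAGGCCA. The motif lay 2 bases from the centre of the pair at SEC16B, 4 at ELOVL5 and 8 at IGLON5, and 100 bases from it at FTO. For CTCF and AP-1, the rising pairs of largest change with a match are shown in the same way. The CTCF motif had 12 letters, and a match could differ from it at 1 of them.
ZFP90, CTCF, chr16:68544200-68544301, minus strand: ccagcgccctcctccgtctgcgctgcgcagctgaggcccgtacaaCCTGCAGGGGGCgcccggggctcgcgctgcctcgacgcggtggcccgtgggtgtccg
UTRN, CTCF, chr6:145349510-145349611, minus strand: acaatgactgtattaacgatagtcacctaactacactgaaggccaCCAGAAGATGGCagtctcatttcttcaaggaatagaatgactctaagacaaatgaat
AC012360.1, AP-1, chr2:105888810-105888906, plus strand: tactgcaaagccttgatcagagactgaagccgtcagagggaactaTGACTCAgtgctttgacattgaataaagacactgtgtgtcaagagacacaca
SYNJ2, AP-1, chr6:158390248-158390344, plus strand: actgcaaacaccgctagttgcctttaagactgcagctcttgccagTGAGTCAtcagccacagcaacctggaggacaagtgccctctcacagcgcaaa

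The rising pairs moved from the later part of the basal list to the earlier part of the overexpression list. The median place of the 477 pairs was 71.8 in the basal list (quartiles 58.4 and 84.4) and 29.4 in the overexpression list (18.8 and 43.8). In the overexpression list 134 of them stood at a place of 20 or less, while 162 stood at a basal place over 80. The median change was 36.2 points, the largest was 85.2, and 93 pairs moved by 50 points or more. Over all distal pairs the median change was -6.62 points, so the distal sites as a whole stood later in the overexpression list. At 50 points or more there were 268 falling pairs beside the 93 rising ones.

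**Figure D1:**
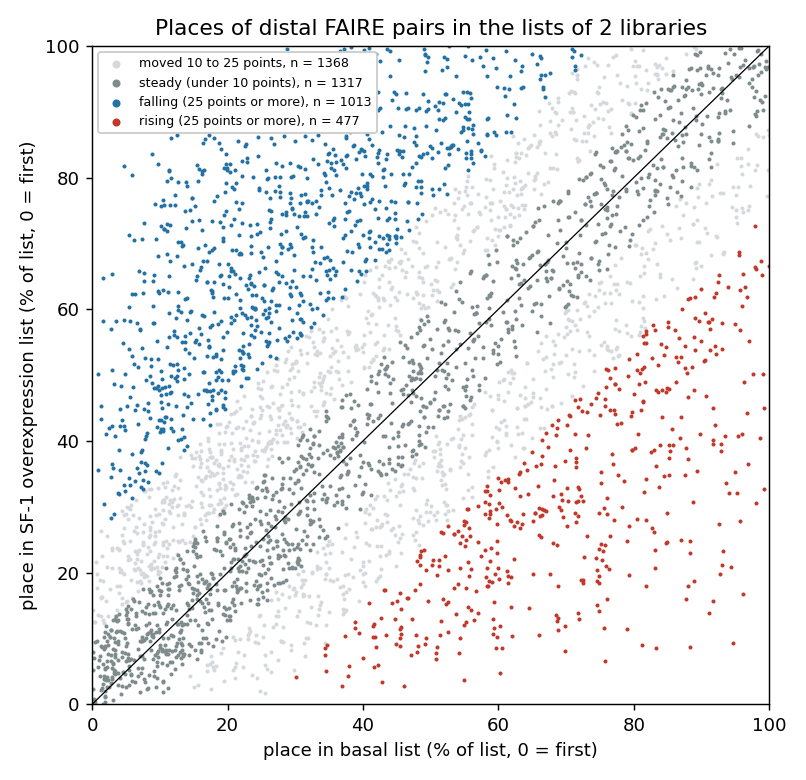
Place of each of the 4175 distal pairs in the basal list (x axis) and in the SF-1 overexpression list (y axis), in percent of the list with 0 first. The 477 rising pairs (red) lie below the line of equal places, the 1013 falling pairs (blue) lie above it, and the 1317 steady pairs (dark grey) lie along it.

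Width followed place. Of the rising pairs, 382 (80.1%) were wider in the overexpression list, 68 had equal width and 27 were narrower. The median width was 199 bp in the basal list and 249 bp in the overexpression list. Of the steady pairs 29.2% and of the falling pairs 3.75% were wider in the overexpression list. Width comes from the same 2 libraries as place, so it is a description and not separate support.

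Of the 10 sites with the largest change, 9 are described. They had basal places from 83.3 to 96.2 and overexpression places from 8.57 to 21.1. The largest was on chromosome 9 from 102989901 to 102990199 in the basal list, in an intron of INVS, which encodes a protein of the primary cilium, and 80.1 kb from the start of TEX10. Its place was 94.6 before and 9.37 with overexpression, and its width 299 bp before and 449 bp with overexpression. The next site, on chromosome 2 in an intron of TGFBRAP1 and 21.1 kb from the start of AC012360.1, went from place 96.2 to place 16.7. An intergenic site 19.8 kb upstream of ZFP90, a zinc finger gene, went from 88.2 to 8.77.

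A site 61.3 kb upstream of SEC61A1 went from place 91.2 to place 13.8. It lay in an intron of MGLL, the monoacylglycerol lipase that cleaves stored glycerides. A site in an intron of MGAT5, which encodes an enzyme that branches N-glycans, went from 91.7 to 15.6. The site upstream of IGLON5, a neuronal cell adhesion gene, went from 83.3 to 8.57, the earliest overexpression place of the 9. It was 99 bp wide in the basal list and 349 bp wide in the overexpression list.

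The other sites lay in an intron of PDZRN4, downstream of UCHL1 and, near SEC16B, within the intron of a gene for a long non-coding RNA. UCHL1 is a deubiquitinating enzyme of neural and endocrine cells, and SEC16B acts at the exit sites of the endoplasmic reticulum. The UCHL1 site went from 94.4 to 20.8, the PDZRN4 site from 92.7 to 19.8 and the SEC16B site from 92.996 to 21.1. At the threshold, the members just inside were sites near ATF7IP2 and CCT3, with changes of 25.02 and 25.04 points. The pairs just outside lay near CDH11 and EMCN, with changes of 24.99 and 24.89 points.

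**Figure D2:**
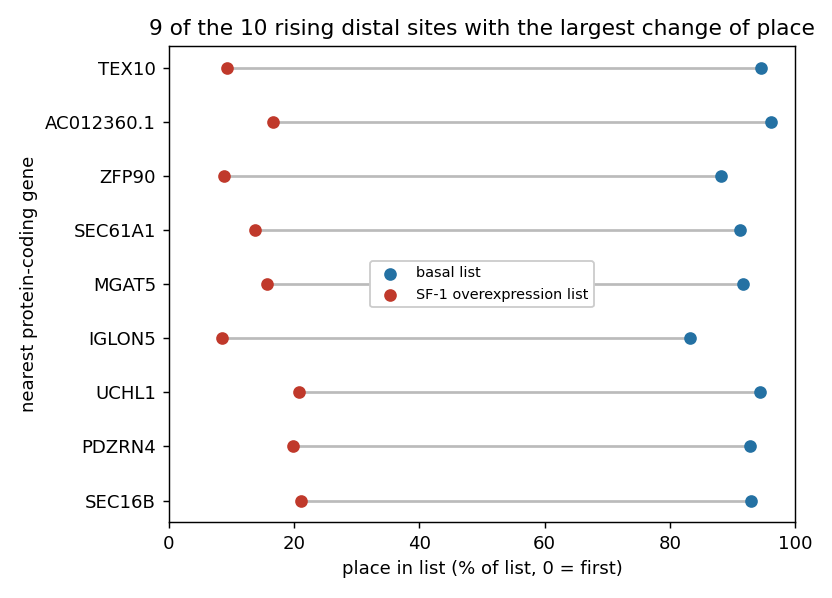
Places of 9 of the 10 rising sites with the largest change in the basal list (blue) and in the SF-1 overexpression list (red), in percent of the list with 0 first, 1 site per line named by the nearest protein-coding gene. Basal places lie between 83.3 and 96.2 and overexpression places between 8.57 and 21.1.

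The question was then which recognition sequences marked the rising pairs. Motifs were searched on both strands of 300 bp around the centre of each pair. Because GC content differed between the groups, shares in steady and falling pairs were weighted to the GC content of the rising pairs. For 475 of the 477 rising pairs the GC content was matched among falling pairs, and the differences from falling pairs are over these. Intervals are 95% intervals for counting error only, and pairs are not replicates.

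Rising pairs held the motif of CTCF, the insulator factor, less often than the pairs they were compared with. It occurred in 83 of 477 rising pairs, which is 17.4% (exact interval 14.1 to 21.1%), in 27.5% of steady and in 26.8% of falling pairs. The difference from steady pairs was -10.1 percentage points (-14.2 to -5.67) and that from falling pairs -9.55 points (-14.5 to -4.47). Among all distal pairs 1069 held the motif. Of those with the motif, 7.76% were rising and 24.9% were falling, beside 11.4% and 24.3% of all distal pairs. Without weighting, the share of CTCF windows was 22.01% (17.2 to 27.5%) among pairs that fell by 50 points or more, 27.8% among pairs that moved by -50 to -25 points, 27.3% among pairs that moved by 0 to 10 points, 19.3% (15.4 to 23.6%) at 25 to 50 points and 9.68% (4.52 to 17.6%), or 9 of 93 pairs, at 50 points or more. When steady pairs were weighted also on the mean place of the pair the difference was -17.0 points (-22.2 to -11.6), and weighting on mean width gave -16.0 points.

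The CTCF matches of the rising pairs were placed at the centre of the site as in the other groups. Within 100 bp on one side and the other of the centre, 7.97% and 8.60% of rising pairs held a match, against 12.8% and 13.3% of steady and 11.8% and 14.6% of falling pairs, without weighting. In windows of equal length 1000 bp beyond the site, the motif was found in 1.47% for rising, 1.63% for steady and 1.53% for falling pairs. The lower share in rising pairs was present below 60% GC, in each of the classes from under 35% to 55 to 60% GC, when set against steady pairs. In the class of 40 to 45% GC, 12 of 115 rising pairs (10.4%) and 88 of 349 steady pairs (25.2%) held the motif. At 60% GC and above the order was the opposite, with 13 of 39 rising pairs (33.3%) and 17 of 67 steady pairs (25.4%).

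**Figure D3:**
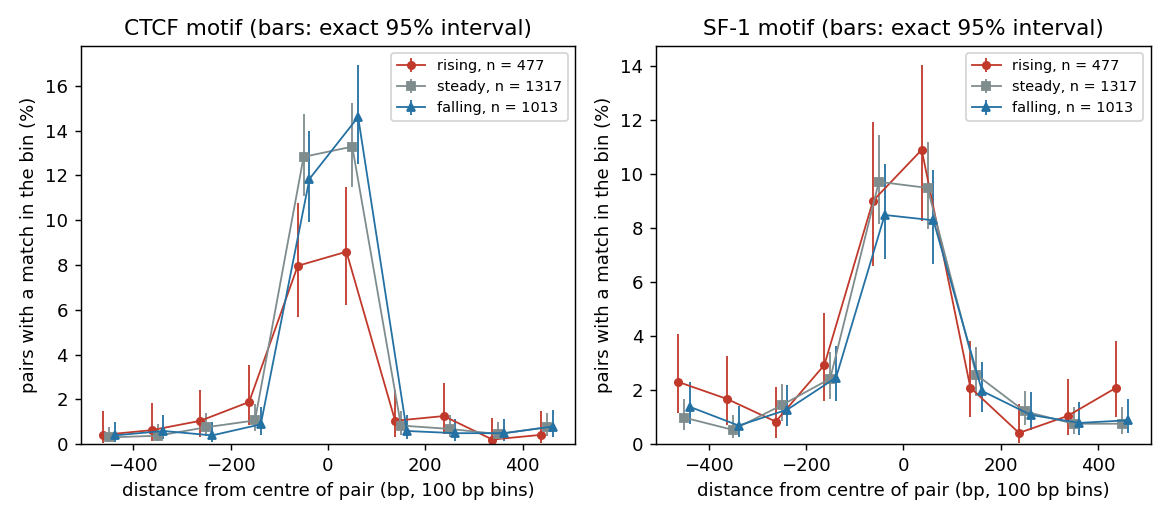
Share of pairs with a CTCF (left) or SF-1 (right) motif in each 100 bp bin around the centre of the pair, for rising (red), steady (grey) and falling (blue) pairs, with exact 95% intervals. Both motifs peak in the 2 central bins in every group, and the CTCF peak is lower in rising pairs.

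The SF-1 motif, CAAGGTCA or CAAGGCCA, was found in 104 rising pairs, which is 21.8% (18.2 to 25.8%). It was present in 20.8% of steady and 19.4% of falling pairs. The differences of 1.05 points (-3.18 to 5.56) and 2.52 points (-2.41 to 7.51) lay within counting error. The motif was 6.50 times as frequent in the rising windows as in windows 1000 bp beyond them, where it occurred in 3.35%. For steady and falling pairs these ratios were 5.66 and 6. A control with the same letters in another order, GACATGCA or GACACGCA, occurred in 1.26% of the rising windows and 1.36% of their flanks. Thus rising pairs were not distinguishable from the other pairs by the full SF-1 motif at these numbers. Without weighting, 29 of the 93 pairs that moved by 50 points or more held the full motif, which is 31.2% (21.98 to 41.6%). At 25 to 50 points the share, also without weighting, was 19.5% (15.7 to 23.9%). The share thus did not increase steadily along the change of place.

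The result depended on how much of the SF-1 motif was required. With the 7-letter core AAGGTCA or AAGGCCA, which every full SF-1 motif contains, the share was 38.8% (34.4 to 43.3%) in rising, 34.7% in steady and 30.2% in falling pairs. The difference from falling pairs was 8.77 points (2.96 to 14.5) and that from steady pairs 4.08 points (-1.001 to 9.27). The former was 5.92 points (-0.398 to 12.3) with an overlap of 50% of both sites and 4.57 points (-1.14 to 10.3) in basal sites at their own width, so that it fell within counting error in both. With a further C or T before the full motif, the share was 13.2% in rising, 15.6% in steady and 14.8% in falling pairs. Pairs with the core but without the full motif made up 17.0% of rising and 10.8% of falling pairs, a difference of 6.25 points (2.03 to 10.6). They made up 13.9% of steady pairs, and the difference from these, 3.03 points (-0.711 to 7.12), lay within counting error. With the full motif, the difference from falling pairs passed counting error when pairs that moved by 20 points were included, at 4.67 points (0.527 to 8.91).

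**Figure D4:**
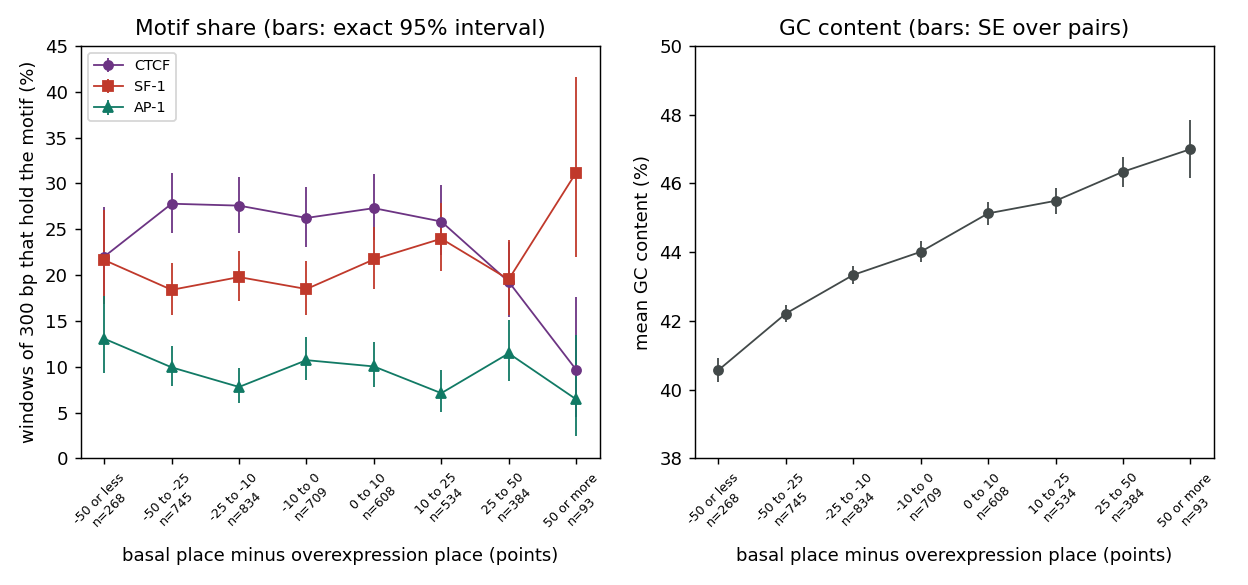
Left, share of 300 bp windows with the CTCF, SF-1 or AP-1 motif in 8 classes of the change of place (basal minus overexpression, rising to the right), with exact 95% intervals. These shares are not weighted on GC content. Right, mean GC content of the windows with its SE. The CTCF share is 9.68% and the SF-1 share 31.2% in the class of 50 points or more, and mean GC content goes from 40.6% on the left to 47.0% on the right.

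AP-1, recognised as TGACTCA or, on the other strand, TGAGTCA, was not distinguishable between the groups. It was found in 50 rising pairs, which is 10.5% (7.88 to 13.6%), in 10.7% of steady and in 11.5% of falling pairs. The differences were -0.254 points (-3.35 to 3.23) and -0.928 points (-4.74 to 2.97). In the flanks of rising pairs it occurred in 4.82%. Its control, TCACATG or TCAGATG, was found in 11.5% of rising windows and 9.33% of their flanks. The AP-1 sequences are each other's reverse complement, while those of the control are not, so the control could match more sequences. The share of AP-1 in rising windows can therefore not be set directly against that of its control. Relative to the flanks of rising pairs, AP-1 was 2.17 times as frequent in the windows and the control 1.24 times.

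In all, 13 motifs were compared, not counting the 2 controls and the shorter and longer forms of the SF-1 motif. The interval of the difference left out 0 for 2 of the 13, CTCF and SP/KLF, against steady as well as against falling pairs. Against falling pairs it also left out 0 for the 7-letter SF-1 core, as given above. These intervals were not adjusted for the number of motifs. SP and KLF factors bind GC-rich boxes, here GGGCGGG, that are common in CpG islands. This box was found in 16 rising pairs, or 3.35% (1.93 to 5.39%), against 7.11% of steady and 6.66% of falling pairs. The differences were -3.75 points (-5.81 to -1.33) and, from a share of 2.95% in the 475 rising pairs matched to falling pairs, -3.72 points (-6.38 to -1.08). Among windows with at least 60% GC, 8 of 39 rising, 31 of 67 steady and 8 of 16 falling pairs held the box. In this GC class the comparison with falling pairs therefore rests on few windows. Without weighting on GC content the difference from falling pairs was 0.195 points (-1.61 to 2.42) and that from steady pairs -1.96 points (-3.82 to 0.337). In windows of 200 bp they were -2.13 points (-4.54 to 0.277) and -1.42 points (-3.24 to 0.823), so that neither was outside counting error.

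For the rest of the 13 motifs the intervals included 0. The motif of RUNX factors (TGTGGTT) was found in 7.76% of rising and 6.14% of steady pairs, and that of GATA factors, which act in adrenal and gonadal development (AGATAAG), in 6.50% and 4.81%. For TEAD, the partners of YAP (ACATTCC), the shares were 5.87% and 4.95%. For the NR4A monomer site (AAAGGTCA), which contains the SF-1 core, they were 4.40% and 3.64%. For forkhead factors (TGTTTAC) they were 3.77% and 5.10%, and for one E-box form (CAGCTG) 16.4% and 16.1%. The cAMP response element (TGACGTCA) was found in 2 rising pairs, and the motifs of ETS factors (CCGGAAGT) and NFI in 0 of 477, with an upper exact bound of 0.770%. Matches to AP-1, the cAMP response element and the E-box read alike on both strands. Among all 4175 distal windows the shares were 25.6% for CTCF, 20.5% for SF-1, 33.5% for its core and 9.56% for AP-1. In 263 of the rising pairs (55.1%) none of the SF-1, CTCF and AP-1 motifs was found, against 49.8% of steady and 49.2% of falling pairs without weighting.

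**Figure D5:**
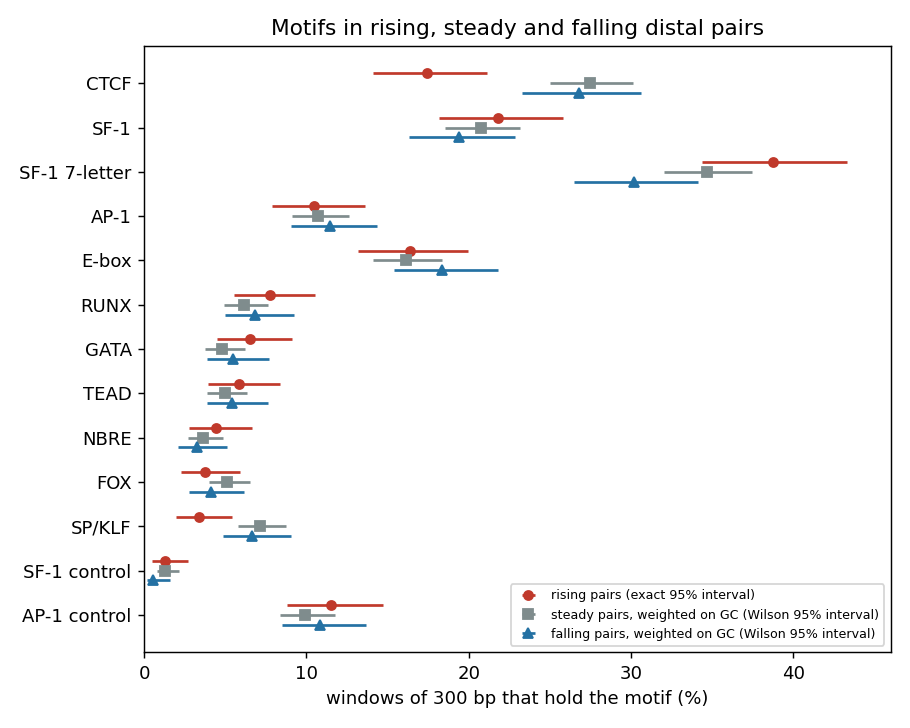
Share of 300 bp windows that hold each motif in rising pairs (red circles, exact 95% interval) and in steady (grey squares) and falling pairs (blue triangles), both weighted to the GC content of the rising pairs, with Wilson 95% intervals. CTCF at 17.4% and SP/KLF at 3.35% in rising pairs lie below the shares of the other groups.

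Rising pairs were richer in GC than the groups they were compared with. The mean GC content of the 300 bp windows was 46.5% ± 8.47 (SD, n = 477) in rising, 44.5% ± 8.26 (n = 1317) in steady and 41.8% ± 6.70 (n = 1013) in falling pairs. The difference was 1.94 percentage points from steady pairs (1.06 to 2.82) and 4.69 points from falling pairs (3.82 to 5.55). Of the distal windows under 35% GC, 6.98% were rising and 31.0% were falling, and of those with at least 60% GC, 20.4% (14.9 to 26.8%) were rising and 8.38% were falling. Whether the libraries differed in their recovery of GC-rich DNA was not tested, since the lists hold no read counts.

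The position of the rising pairs relative to genes was not distinguishable from that of steady pairs. The centre lay in an intron for 274 (57.4%), in an exon for 13 (2.73%) and between genes for 190 (39.8%). It lay within a gene for 60.2% (55.6 to 64.6%), against 59.6% of steady pairs, a difference of 0.560 points (-4.69 to 5.71). The nearest protein-coding start was within 50 kb for 65.6% of rising and 66.4% of steady pairs. The site lay upstream of that start in 49.5% of rising and 50.1% of steady pairs. The median distance to the nearest protein-coding start was 30.4 kb for rising pairs, with quartiles of 19.3 and 61.5 kb.

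On chromosomes, the share of distal pairs that were rising had an interval above 11.4% on 4 of 23 chromosomes, namely 1, 16, 19 and 22, and below it on 1, chromosome 14. It was 24.5% (13.3 to 38.9%) on chromosome 22, 22.7% (13.3 to 34.7%) on chromosome 19, 20.2% (13.2 to 28.7%) on chromosome 16 and 15.2% (11.6 to 19.5%) on chromosome 1. On chromosome 14 it was 5.17% (1.92 to 10.9%), with 6 of 116 pairs. On chromosome 21, with 9 of 40 pairs, it was 22.5% (10.8 to 38.5%), an interval that includes 11.4%. The intervals were not adjusted for the 23 chromosomes. The mean GC content of the distal windows was 54.1% on chromosome 19, 51.3% on 22, 48.4% on 16, 45.05% on 1 and 43.2% on 14, and its part in these shares was not tested.

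Rising pairs were spread over many genes. Their nearest protein-coding starts belonged to 450 genes, of which 426 had 1 rising pair, 21 had 2 and 3 had 3. FTO, ERC2 and PDZRN4, the genes with 3, are named because of these counts, since no gene reached the 4 that the naming rule asked for. FTO, an RNA demethylase gene on chromosome 16, had 5 distal pairs, of which 3 were rising, 0 were falling and 0 were steady. Its rising sites went from place 93.2 to 23.2, from 71.4 to 30.7 and from 40.1 to 7.09, and the first and second held an SF-1 motif. ERC2, which encodes a scaffold of the presynaptic active zone, had 3 rising and 2 falling pairs among 8. Its rising sites, all in introns, went from 54.1 to 7.85, from 66.7 to 29.4 and from 58.6 to 30.5. PDZRN4 had 3 rising and 0 falling pairs among 5, and its 2 further rising sites went from 54.9 to 12.02 and from 34.4 to 8.51.

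Distal pairs were also counted near genes of adrenal function. A distal pair of any kind was nearest to 4 of 18 genes of steroid synthesis (22.2%) and 11 of 22 of cholesterol supply (50%). It was nearest to 11 of 32 adrenal regulators (34.4%), against 13.8% of all protein-coding genes. For the array lists described below, of genes higher and lower on SF-1 overexpression, the shares were 21.9% and 42.5%. The array lists come from the same cell line, and CYP19A1 is in both the steroid synthesis list and the list of lower genes. They are therefore no control for adrenal function. Whether such shares are particular to genes of adrenal function was not tested, and no intervals were computed for them. Of 18 genes of steroid synthesis and 22 genes of cholesterol supply, 0 were nearest to a rising pair, although these lists had 6 and 18 distal pairs in all. Of their distal pairs, 3 of 6 (11.8 to 88.2%) and 4 of 18 (6.41 to 47.6%) were falling, and both intervals include the 24.3% of all distal pairs. The intervals of the rising share, 0 to 45.9% and 0 to 18.5%, include the 11.4% of all distal pairs. The 32 adrenal regulators had 23 distal pairs, of which 5 were falling (7.46 to 43.7%) and 4.35% were rising (0.110 to 21.9%). These intervals, too, include the shares of all distal pairs. Of the 32 genes, 1 (3.13%) was nearest to a rising pair, beside 2.24% of all protein-coding genes. That gene was NR5A1, which encodes SF-1 itself.

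The start of NR5A1 was nearest to 3 distal pairs on chromosome 9, which lay 19.0, 29.5 and 33.1 kb from it and moved in different directions. The site from 127302651 to 127302849 in an intron of the neighbouring nuclear receptor gene NR6A1 was rising, from place 62.7 to place 27.8. It held the 7-letter core of the SF-1 motif but not the full motif. The site from 127299051 to 127299349 went the other way, from 34.5 to 97.2, and that from 127288451 to 127288949 went from 4.41 to 15.3. NR6A1 itself had 5 distal pairs, of which 1 was falling and 2 were rising. The rising ones went from 55.2 to 17.6 and from 89.6 to 58.3.

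Next, the nearest genes were set beside lists of genes that the study had called regulated on SF-1 overexpression in expression arrays of this cell line, which are other samples. Of 178 protein-coding genes matched from the list of those higher on overexpression, 9 (5.06%) were nearest to a rising pair, against 2.24% of all protein-coding genes. Of the same list 9 genes (5.06%) were nearest to a falling pair, against 4.33% of all protein-coding genes. The genes of this list had 56 distal pairs in all, of which 16.1% (7.62 to 28.3%) were rising. Of rising pairs, 1.89% had such a gene as the nearest, against 1.60% of steady pairs, a difference of 0.285 points (-0.975 to 2.04) that lay within counting error.

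Each of these 9 genes had 1 rising pair. SIAH3, of a ubiquitin ligase family, had a site 18.5 kb upstream that went from place 91.7 to 40.1, and SHISAL1 one that went from 75.8 to 24.3. FRAS1, which encodes a basement membrane protein, had an intronic site that went from 60.3 to 11.9. All of these 3 sites held the full SF-1 motif. A site in LIFR, the receptor of leukemia inhibitory factor, went from 81.6 to 32.3, and one in FBN2, which encodes a fibrillin, went from 63.9 to 36.7 and held the 7-letter core. The sites in RIN2 and FGD4, both exchange factors of small GTPases, went from 81.0 to 44.8 and from 82.7 to 52.7. The site in ARHGAP6, which encodes a GTPase-activating protein, held a CTCF motif and went from 86.2 to 48.9, and that in TAF4B, a subunit of TFIID, went from 50.4 to 21.9. TAF4B was also nearest to a falling pair.

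Among the 87 matched genes that were lower on SF-1 overexpression, 3 (3.45%) were nearest to a rising pair and 25 (28.7%) to a falling pair. For all protein-coding genes these shares were 2.24% and 4.33%. A distal pair of any kind was nearest to 42.5% of this list, against 13.8% of all protein-coding genes. The 87 genes had 95 distal pairs. Of these pairs 3.16% (0.656 to 8.95%) were rising and 45.3% (35.02 to 55.8%) were falling, beside 11.4% and 24.3% of all distal pairs. Of rising pairs 0.629% and of falling pairs 3.35% lay nearest to such a gene, a difference of -2.72 points (-4.61 to -1.02). For steady pairs the share was 1.51%, and the interval of the difference of -0.885 points included 0 (-1.85 to 0.441). The 3 genes were SLC44A1, a choline transporter, SERINC5 and CADPS, which acts in the release of dense-core vesicles. Their sites went from place 90.7 to 46.8, from 49.0 to 23.4 and from 97.9 to 72.6, and that at SLC44A1 held a full SF-1 motif. CADPS was also nearest to a falling pair. Pairs near the same gene share a neighbourhood and are not independent.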

How the data were processed

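Each FAIRE library had a list of sites, while libraries of input DNA were not used here. The submitters' processing notes named hg19 and CASAVA 1.8. For the FAIRE libraries the aligner, caller and threshold were not given in the sources used here. The authors deposited a running peak number and a score that was 1000 in every line, so no peak height, read count or depth was available. Coordinates are 1-based on GRCh37, and gene models came from release 44 of GENCODE, lifted to that assembly. The 4 samples of the series were grouped per the labels, with 1 library each.

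Starts of all annotated transcripts were used. Shares in rising pairs have exact (Clopper-Pearson) intervals. Shares in steady or falling pairs were weighted to rising pairs in GC bins of 2.5 percentage points of the 300 bp window, and differences have Newcombe intervals at the effective number of pairs. Differences in mean GC content have normal intervals. CTCF matches could have 1 mismatch. In the comparison with falling pairs, 475 rising pairs had a GC bin in common with them. Array lists gave names only: 178 of 190 names of the higher list and 87 of 92 of the lower list were matched, older names by RefSeq synonyms. The authors' fold changes and p-values were not used.

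Functions were tested on simulated data. Python 3.11.15, numpy 2.4.6, pandas 2.3.3, scipy 1.17.1 and pysam 0.24.0 were used. Named sites were the 10 with the largest change, of which 1 is not reported here, and those at the threshold, and named genes those nearest to them, to several rising pairs, or in the gene lists. The members, lists and motifs were chosen with earlier results of these data known. The split of the SF-1 core, and the repeats for CTCF, SP/KLF, the SF-1 core and genes lower on overexpression against falling pairs, and for SP/KLF against steady pairs, were chosen after seeing the data. Alternatives covered overlap, starts, threshold, the basis of place, weighting, the steady set, window and motif length.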

Additional observations from a re-analysis of the deposited data

How the results depend on the processing

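No paired analysis was possible because each condition had 1 library. Of 175 recomputed values, 153 kept their direction and their side of counting error, or stayed within 1.5 times the count. The CTCF difference from steady pairs kept both in 15 of 15 alternatives (-17.0 to -8.65 points) and that from falling pairs in 13 of 13 (-11.3 to -7.81). The difference from falling pairs in genes lower on overexpression kept both in 12 of 12. There were 263 rising pairs with a change of 35 points or more. The SF-1 difference from steady pairs was -2.53 points in basal sites at their own width and -2.35 with the 9-letter motif, and that from falling pairs was -0.507 and -1.56. The latter was 4.67 at 20 points and 8.77 with the 7-letter core. The AP-1 difference was 0.273 with 50% overlap, 0.0798 without weighting and 0.597 in 500 bp. The difference within genes was -0.956 without weighting and -0.0451 without steady pairs early in both lists. That for genes higher on overexpression was -0.142 with only the 5′ ends of genes as starts and -0.398 for any start within 100 kb. The SP/KLF difference from falling pairs was 0.195 without weighting, where it changed sign. The SP/KLF difference from steady pairs fell within counting error in 3 of 15 alternatives and that from falling pairs in 3 of 13. The 7-letter core difference from falling pairs did so in 2 of 13. The cause of these changes was not tested. Sites called in only 1 list are not among the pairs. Depth is unknown, so whether weak sites were missed in 1 list could not be checked.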

Other observations

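Sites that were called in 1 list and overlapped none of the other were counted around the rising pairs, as a description from the same 2 libraries. Within 10 kb, rising pairs had 81 overexpression-only and 80 basal-only sites, a ratio of 1.01, against 0.755 for steady and 0.524 for falling pairs. Within 100 kb the ratios were 0.874, 0.762 and 0.622. Within 100 kb, 38 of 477 (7.97%) had another rising pair and 68 (14.3%) had a falling pair. For steady pairs these shares were 8.96% and 16.9%, and for falling pairs 7.11% and 16.5%.

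The base before the 7-letter SF-1 core was tabulated after the values were seen. A core preceded by G was found in 10.7% (8.06 to 13.8%) of rising and 5.13% of falling pairs, and the GC-weighted difference was 5.28 points (1.964 to 8.78). With T before it the shares were 6.08% (4.11 to 8.61%) and 2.57%, a difference of 3.55 points (1.08 to 6.28). With A, as in the NR4A monomer site, the difference was 1.20 points (-1.83 to 4.36), and with C, the full SF-1 motif, 2.52 points (-2.41 to 7.51). These are 4 of 8 comparisons made, the others being against steady pairs, where T alone had an interval without 0, at 2.40 points (0.208 to 5.09).

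In combination, SF-1 and CTCF motifs were found together in 5 rising pairs (1.05%), 27 steady pairs (2.05%) and 17 falling pairs (1.68%). SF-1 and AP-1 motifs were found together in 13 rising pairs (2.73%) and SF-1 and GATA motifs in 10 (2.10%). SF-1 and RUNX motifs were found together in 9 (1.89%) and SF-1 and TEAD motifs in 4 (0.839%). The steady pairs held these combinations in 3.04%, 1.37%, 0.987% and 1.29% of cases, and the falling pairs in 2.76%, 1.48%, 0.691% and 0.691%. The shares of combinations were not weighted on GC content and have no intervals. Of the 104 rising pairs with an SF-1 motif, 10 held it more than once, and at most 3 times.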
